A study of Mus musculus with 8 samples.

Results

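The 5 histone acetyltransferases of the MYST family and the 5 subunits that build the MOZ complex around KAT6A are described here in mouse embryonic hearts labelled as Kat6a mutant or wild type. They are Kat6a, Kat6b, Kat7, Kat8 and Kat5 for the enzymes, and Brpf1, Brd1, Brpf3, Ing5 and Meaf6 for the subunits. They were chosen by name for what their proteins do, and each symbol was matched to 1 Entrez gene ID, so that they make up 10 of the 27179 genes counted. All 10 passed the filter on low counts, which 15086 genes passed in all. The hearts were taken at E10.5. The 3 MOZ KO hearts are labelled Kat6a-/-, with both alleles stated as lost, and the 5 MOZ WT hearts are labelled Kat6a+/+. No treatment is named for either genotype. The sources used here give neither the strain nor the litter nor the design of the mutant allele. Each library is called 1 heart here, as its title names a replicate; nothing in the labels says whether hearts were pooled or came from separate litters, so the p-values reflect only how these libraries varied.

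MYST enzymes move acetyl groups onto histone tails and share a catalytic domain that binds acetyl coenzyme A. KAT6A (MOZ) and its closest paralog KAT6B (MORF) work as 4-part complexes with a scaffold of the BRPF family, the PHD finger protein ING5, which reads methylated histone H3, and the small subunit MEAF6. The scaffolds are BRPF1, BRD1 (also called BRPF2) and BRPF3, and KAT7 (HBO1) uses BRPF or JADE scaffolds with the same small subunits. KAT8 (MOF) works in the MSL and NSL complexes and KAT5 (TIP60) in a large complex built on EP400 and TRRAP, so these enzymes are paralogs of KAT6A outside its own complex. In mice, loss of Kat6a is known for defects of the heart, the pharyngeal region and blood stem cells.

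Total counts ran from 19911803 to 30033097 in MOZ KO hearts and from 20817852 to 34539787 in MOZ WT hearts, and each of the 10 genes had at least 409 reads in every heart. Cardiomyocyte markers (Tnnt2, Myh6, Myh7, Actc1, Nppa and Myl7) summed to between 29990 and 33220 CPM (counts scaled to a common library size) in MOZ KO hearts and between 28870 and 30590 CPM in MOZ WT hearts, so the hearts carried the defining transcripts of the labelled tissue. Epicardial markers were lower in MOZ KO, with 5 of 6 past an adjusted p of 0.05 and sums of 266 to 310 CPM in MOZ KO hearts against 381 to 443 CPM in MOZ WT hearts. Macrophage markers were higher, with 5 of 6 past it and sums of 31.7 to 38.1 CPM in MOZ KO hearts against 11.6 to 22.2 CPM in MOZ WT hearts. Without MOZ WT replicates 4 and 5, 4 of 6 passed in each of these lists. Of the endothelial markers 2 of 6 (Pecam1 and Tie1) passed with higher values in MOZ KO, and 0 without those hearts. The list did not move as one: 5 had a log2 fold change above 0, with Kdr at 0.03, and 1, Tek, went the other way. Tek had 150 to 163 CPM in MOZ KO hearts against 166 to 184 CPM in MOZ WT hearts, and did not pass. None of the 4 liver markers and none of the 5 neural markers tested passed in edgeR, with 2 and 1 at an unadjusted p under 0.05; limma voom called 1 liver marker and DESeq2 1 neural marker. MOZ KO replicate 3 stood apart in the liver marker Afp, at 12.1 CPM against at most 1.04 CPM in any other heart. It had 27 reads of Alb, which had 0 and 4 in MOZ KO replicates 1 and 2 and 0 in all MOZ WT hearts. Serpina1a had 4 reads in that heart and 0 in the others. The other 3 liver markers did not set it apart. Ttr, Apoa2 and Trf were at 0.36, 0.63 and 31.8 CPM there and reached 0.87, 0.569 and 30.1 CPM in other hearts. The part of such shifts in cell makeup in the values below was not tested, and in bulk heart RNA fewer cells of a type and less RNA per cell cannot be told apart. MOZ WT replicates 4 and 5 had Xist RNA, at 307 and 301 CPM of total counts, and neither the 3 MOZ KO hearts nor the other MOZ WT hearts had more than 0.372 CPM. Ddx3y, like Xist a sex-linked gene, had 0 and 0.081 CPM in MOZ WT replicates 4 and 5. It had 63.5 to 73.7 CPM in every other heart, so all MOZ KO hearts had the pattern of MOZ WT replicates 1 to 3. The descriptions give the MOZ KO libraries the lower running numbers, and whatever that order stands for cannot be told apart from genotype.

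Kat6a and Kat6b are close enough in sequence that the first question is whether their reads can be separated. The longest stretch that transcripts of both hold without a difference was 35 bases, and it is shown here, with 30 bases on each side, because no longer read could match both genes without a difference. Both windows lie in coding sequence, that of Kat6a in exon 8 (chr8:22911790-22911884, plus strand, GRCm38) and that of Kat6b in exon 7 (chr14:21625023-21625117, plus strand, GRCm38), counted in the longest GENCODE M21 transcript that holds the stretch. Capitals mark the bases that differ between the genes.
Kat6a: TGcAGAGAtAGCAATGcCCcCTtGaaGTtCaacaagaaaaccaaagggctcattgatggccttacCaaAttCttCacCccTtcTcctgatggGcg
Kat6b: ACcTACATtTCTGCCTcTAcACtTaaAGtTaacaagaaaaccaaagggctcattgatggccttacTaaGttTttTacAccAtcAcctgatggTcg
Of the 95 bases of each window 65 were identical and 30 differed. No stretch of 50 bases was common to any pair among the 10 genes. Kat6a, Kat5, Brd1 and Ing5 shared no 50-base stretch with any other annotated transcript, and Kat6b shared 78 of 17035 (0.458%) with its 2 processed pseudogenes, Kat6b-ps1 and Kat6b-ps2. Among the other genes the shared part was largest for Kat8, at 1.83% of its 50-base stretches. No source used here gives the read length, and how far shorter reads could be shared was not tested. Exons of 4 of the genes overlap a gene on the opposite strand: Kat5 shares 426 of its 3509 exonic bases with Rnaseh2c, Kat8 shares 122 of 2891 with Prss8, Brpf1 shares 255 of 6779 with Gm15492, and Brpf3 shares 272 and 119 of 8654 with 2 noncoding genes. Since the strand setting of the counting is not stated, reads in those parts may belong to either gene.

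The levels of the 10 genes were compared per kilobase of gene length, as CPM divided by the length that the count table gives for each gene. Meaf6 (Entrez gene 70088; chromosome 4, 125085113 to 125113238, mm10), the small subunit, was highest, at 27.4 ± 1.27 CPM per kilobase in MOZ KO hearts and 26.6 ± 1.23 in MOZ WT hearts (SD, n = 3 and n = 5). That rank rests on the table's length for Meaf6, 876 bases, the shortest of the 10; before the division it had 24.0 CPM in MOZ KO hearts and 23.3 CPM in MOZ WT hearts, and only Kat8 was lower. After the division Kat6b was lowest, at 6.60 ± 0.522 CPM per kilobase in MOZ KO hearts and 5.72 ± 0.533 in MOZ WT hearts. The scaffold gene Brd1 came next after Meaf6, with 17.0 to 20.3 CPM per kilobase over the 8 hearts, and the ranges of these 3 genes met those of no neighbour in the order. The highest Kat6a value, 17.1, lay just past the lowest Brd1 value.

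Below Brd1 stood 4 of the 5 enzymes at nearly the same level per kilobase. That likeness rests on the table's lengths, 9126 bases for Kat6a, 5966 for Kat7, 2536 for Kat5 and 1503 for Kat8. GENCODE M21 exons cover 3509 bases for Kat5 and 2891 for Kat8, more than those lengths. Before the division the MOZ WT means were 144.6 CPM for Kat6a, 94.1 for Kat7, 39.3 for Kat5 and 20.3 for Kat8. Kat7 ranged from 14.5 to 16.5 CPM per kilobase over the 8 hearts, Kat6a from 14.6 to 17.1, Kat5 from 13.9 to 16.3 and Kat8 from 12.2 to 15.0. Kat7 lay above Kat6a in 4 of 8 hearts and Kat6a above Kat5 in 2 of 8, so that the order of these 3 genes did not hold beyond their spread, while Kat5 lay above Kat8 in 7 of 8. The scaffolds Brpf3, with 9.81 to 14.3 CPM per kilobase, and Brpf1, with 9.87 to 12.0, followed, and Brpf3 lay above Brpf1 in 6 of 8 hearts. Ing5 stood at 7.88 to 9.32 CPM per kilobase, under Brpf1 and above Kat6b in all 8 hearts.

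**Figure D1:**
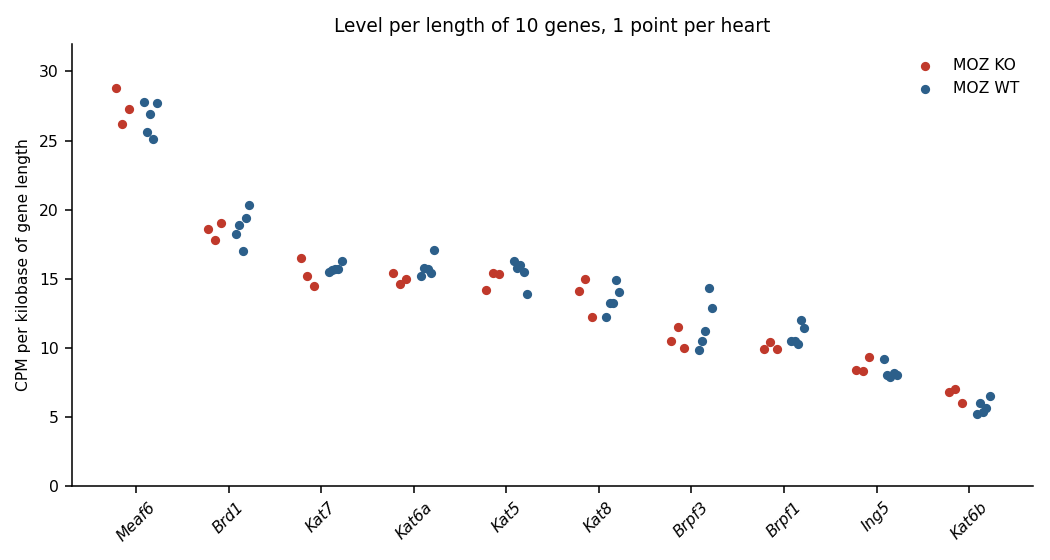
Level of each gene in CPM per kilobase of gene length (vertical axis), with 1 point per heart, MOZ KO in red and MOZ WT in blue, ordered by the mean over the 8 hearts. Meaf6 stands apart at the top, at 25.1 to 28.8, Kat7, Kat6a and Kat5 run together between 13.9 and 17.1, and Kat6b lies at the bottom, at 5.17 to 7.01.

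The comparison of MOZ KO with MOZ WT asks whether the paralogs and partners of KAT6A differ in RNA level in hearts labelled Kat6a-/-. None of the 10 genes had an adjusted p under 0.05 by edgeR's quasi-likelihood test, with p-values adjusted over all genes tested. Over those 15086 genes 2.67% passed, 1.44% with higher and 1.23% with lower values in MOZ KO. DESeq2 and limma voom called 0 of the 10 as well, and the unadjusted p was under 0.05 for 1 of them, Kat6b, where it was for 14.2% of all genes tested. In none of the 10 did the MOZ KO values lie wholly above or below the MOZ WT values, which they did for 9.59% of all genes tested. The median log2 fold change (MOZ KO over MOZ WT) was -0.03 for the 10 genes, and the median size of the change, without its sign, was 0.06, beside 0.06 for the 8155 genes tested at or above the level of the lowest of the 10.

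Counts of Kat6a itself (Entrez gene 244349; chromosome 8, 22859442 to 22943259) did not separate the genotypes. It had 15.4, 14.6 and 15.0 CPM per kilobase in MOZ KO replicates 1 to 3, against 15.2, 15.8, 15.7, 15.4 and 17.1 in MOZ WT replicates 1 to 5. The groups overlap, and MOZ WT replicate 5 is the highest heart. The log2 fold change was -0.08 ± 0.05 (SE), and its 95% interval reached from -0.18 to 0.03, or from 0.884-fold to 1.02-fold. The count covers all exons together and the sources do not say which of them the allele lacks, so it is no check of the genotypes, which are used as labelled.

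Kat6b (Entrez gene 54169; chromosome 14, 21499216 to 21672478), the closest paralog, had the largest difference of the 10 genes. It had 49.8, 51.4 and 44.1 CPM in MOZ KO replicates 1 to 3, against 37.9, 43.8, 39.2, 41.4 and 47.8 CPM in MOZ WT replicates 1 to 5. Of the MOZ KO hearts, replicates 1 and 2 lay above every MOZ WT heart. MOZ KO replicate 3 lay below MOZ WT replicate 5 and above the other MOZ WT hearts. The log2 fold change was 0.21 ± 0.08 (SE; adjusted p = 0.182, edgeR quasi-likelihood test), with a 95% interval of 1.04-fold to 1.29-fold that is not adjusted for the number of genes. It did not pass, and it did not pass under any alternative run, with adjusted p-values of 0.0736, without MOZ WT replicate 5, to 0.464, without MOZ KO replicate 1. Without MOZ WT replicates 4 and 5, those with Xist RNA, the log2 fold change of Kat6b was 0.27 (adjusted p = 0.0887, edgeR quasi-likelihood test). The ratio of Kat6b to Kat6a per kilobase was 0.439, 0.48 and 0.4 in MOZ KO replicates 1 to 3, against 0.340, 0.377, 0.341, 0.366 and 0.380 in MOZ WT replicates 1 to 5. This ratio was formed after the values of both genes were seen, and its lack of overlap between the groups is a description with no test. The sum of both genes was 21.6 ± 0.591 CPM per kilobase in MOZ KO hearts and 21.6 ± 1.26 in MOZ WT hearts (SD, n = 3 and n = 5).

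**Figure D2:**
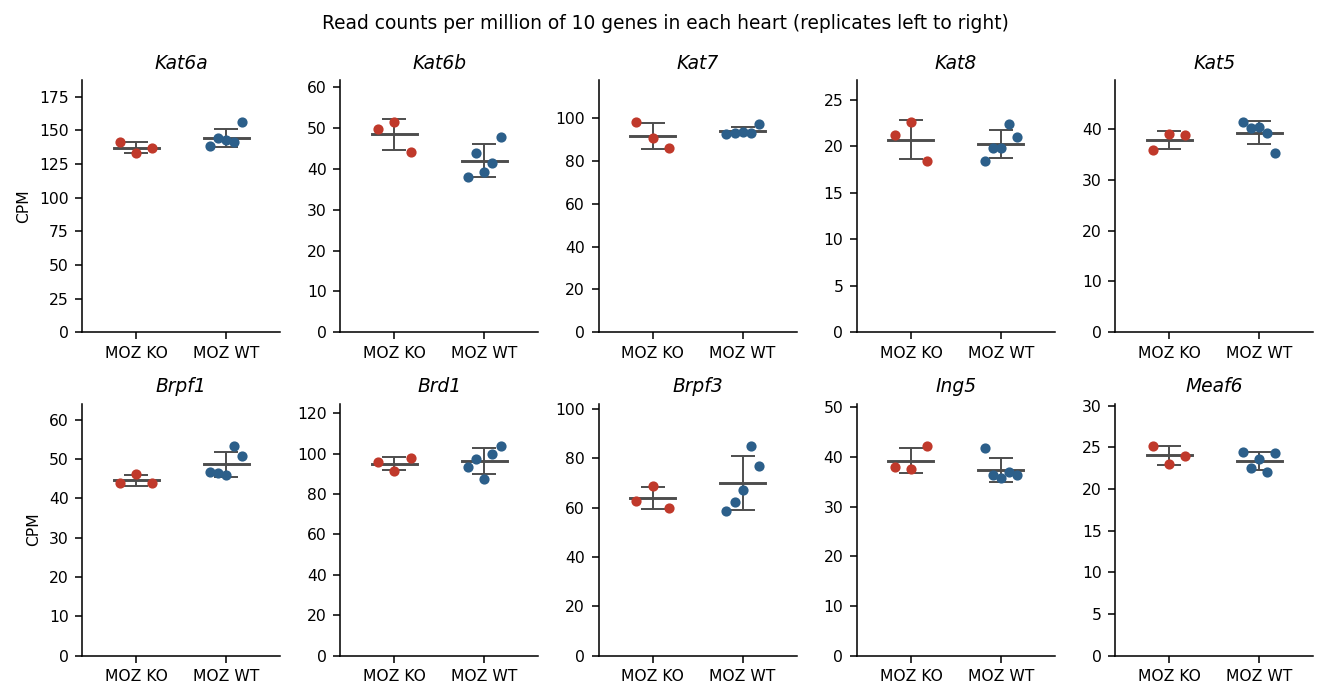
CPM of each gene (vertical axes, each from 0) in the 3 MOZ KO hearts (red, left) and the 5 MOZ WT hearts (blue, right), in order of replicate number, with the mean as a line and the SD as a bar. Values of the groups overlap in every panel, and MOZ WT replicates 4 and 5 are the highest hearts for Brpf3, at 85.1 and 77.0 CPM.

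The other 3 enzymes differed less between the genotypes. Kat7 (Entrez gene 217127; chromosome 11, 95271853 to 95310246), which acetylates histone H3 with the same scaffolds, had 98.2, 90.8 and 86.2 CPM in MOZ KO replicates 1 to 3, against 92.7, 93.4, 93.5, 93.4 and 97.3 CPM in MOZ WT replicates 1 to 5. The MOZ KO hearts thus lay on both sides of a narrow MOZ WT group, and the log2 fold change was -0.03 ± 0.05 (SE). Kat8 (Entrez gene 67773; chromosome 7, 127912517 to 127925838), which acetylates histone H4, had 21.2, 22.6 and 18.4 CPM in MOZ KO replicates 1 to 3, against 18.4, 19.8, 19.8, 22.4 and 21 CPM in MOZ WT replicates 1 to 5. The MOZ KO hearts spanned about the range of the MOZ WT hearts. Kat5 (Entrez gene 81601; chromosome 19, 5603014 to 5611556), the enzyme of the TIP60 complex, had 35.9, 39.1 and 38.9 CPM in MOZ KO replicates 1 to 3, against 41.4, 40.2, 40.5, 39.3 and 35.4 CPM in MOZ WT replicates 1 to 5. Its lowest heart was MOZ WT replicate 5 and the other 4 MOZ WT hearts lay above the MOZ KO hearts. The 95% intervals of the fold change were 0.907 to 1.05 for Kat7, 0.897 to 1.17 for Kat8 and 0.874 to 1.06 for Kat5. Adjusted p-values of these 3 genes ran from 0.805 to 0.922 (edgeR quasi-likelihood test).

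The enzymes were also set against each other within each heart, as shares of the summed level per kilobase of all 5. Kat6a held 22.9 ± 1.07% in MOZ KO hearts and 23.9 ± 0.832% in MOZ WT hearts (SD, n = 3 and n = 5). Kat7 held 23.4 ± 1.05% in MOZ KO hearts and 23.8 ± 0.326% in MOZ WT hearts. Kat5 held 22.8 ± 1.58% in MOZ KO hearts and 23.4 ± 1.79% in MOZ WT hearts. Kat8 held 20.9 ± 1.46% in MOZ KO hearts and 20.3 ± 1.19% in MOZ WT hearts. Kat6b held 10.1%, 10.4% and 9.53% in MOZ KO replicates 1 to 3, against 8.02%, 8.98%, 8.11%, 8.41% and 9.59% in MOZ WT replicates 1 to 5. MOZ KO replicate 3 lay just under MOZ WT replicate 5, so these shares overlap. The summed level of the 5 enzymes was 65.8 ± 2.34 CPM per kilobase in MOZ KO hearts and 66.3 ± 1.30 in MOZ WT hearts. A share of this kind is a score over chosen genes, and no test was made of it.

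**Figure D3:**
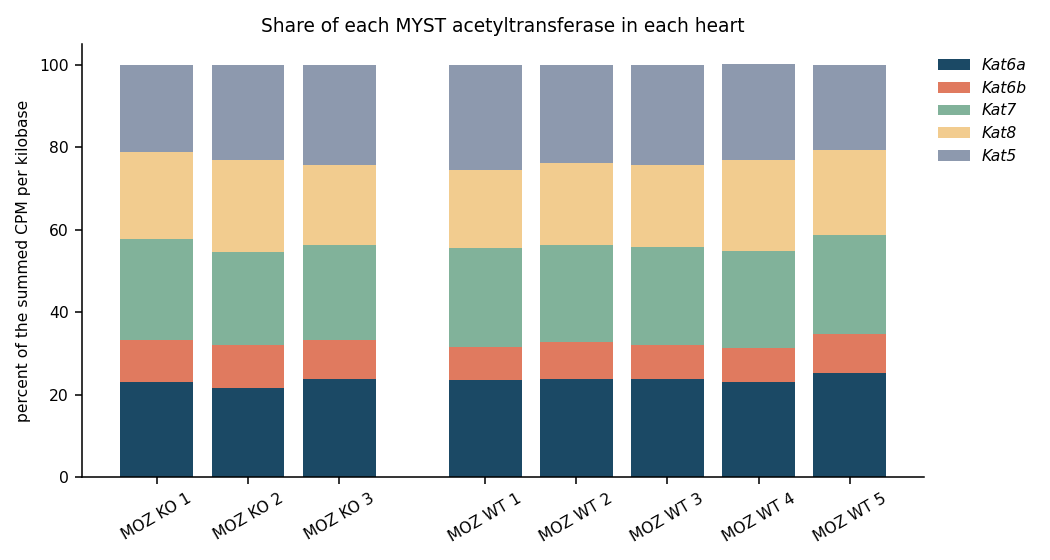
Share of each MYST enzyme in the summed CPM per kilobase of all 5, in percent (vertical axis), with 1 bar per heart and MOZ KO hearts on the left. Kat6a holds 21.7% to 23.8% in MOZ KO hearts and 23.0% to 25.2% in MOZ WT hearts, and Kat6b is the thinnest band in each heart. Without division by length Kat8 has the smallest share, at 5.59% to 6.69%, and Kat6b holds 11.5% to 15.3%.

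Among the scaffolds, Brpf1 and Brpf3 were lower in MOZ KO on average and neither passed. Brpf1 (Entrez gene 78783; chromosome 6, 113306863 to 113324862), the scaffold known to pair with KAT6A and KAT6B, had 43.8, 46.1 and 43.8 CPM in MOZ KO replicates 1 to 3, against 46.6, 46.5, 45.9, 53.4 and 50.7 CPM in MOZ WT replicates 1 to 5. Only MOZ KO replicate 2 reached into the range of the MOZ WT hearts, and the log2 fold change was -0.13 ± 0.06 (SE; adjusted p = 0.399, edgeR quasi-likelihood test). Brpf3 (Entrez gene 268936; chromosome 17, 28801126 to 28838789), which is known as a partner of KAT7, had 62.7, 68.8 and 59.9 CPM in MOZ KO replicates 1 to 3, against 58.6, 62.4, 67.2, 85.1 and 77.0 CPM in MOZ WT replicates 1 to 5.

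The MOZ WT hearts that were high for both scaffolds were replicates 4 and 5, those with Xist RNA. Without them, the log2 fold change of Brpf3 was 0.02 instead of -0.14 and that of Brpf1 was -0.06 instead of -0.13. Erythroid markers, summed, ranged from 4598 to 7683 CPM in MOZ KO hearts and from 3212 to 13450 CPM in MOZ WT hearts, with MOZ WT replicate 4 the highest heart for all 6 markers; replicate 5 lay between other MOZ WT hearts. The part of these features in the scaffold values was not tested. Over the MOZ WT hearts Brpf3 varied most among the 10 genes, with a coefficient of variation of 15.5%, where Kat7 varied by 1.96%. Over the MOZ KO hearts Kat8 varied most, at 10.3%, with Brpf3 at 7.18% and Kat7 at 6.59%. The 95% interval of Brpf3 was the widest of the 10, from 0.752-fold to 1.10-fold.

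Brd1 (Entrez gene 223770; chromosome 15, 88687034 to 88734228), the scaffold with the highest level per length, had 95.8, 91.5 and 97.7 CPM in MOZ KO replicates 1 to 3, against 93.6, 97.3, 87.4, 99.7 and 104 CPM in MOZ WT replicates 1 to 5. All 3 MOZ KO hearts lay inside the range of the MOZ WT hearts, and the log2 fold change was -0.02 ± 0.06 (SE). It was 0.04 without MOZ WT replicates 4 and 5. Summed per kilobase, the 3 scaffolds stood at 39.0, 39.7 and 38.9 in MOZ KO replicates 1 to 3, against 38.5, 39.9, 38.6, 45.7 and 44.7 in MOZ WT replicates 1 to 5. The first 3 MOZ WT hearts lie with the MOZ KO hearts in that sum.

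Neither of the small subunits passed. Ing5 (Entrez gene 66262; chromosome 1, 93803926 to 93822101), named in the title of the series for histone acetylation and the epicardium, had 38.0, 37.6 and 42.3 CPM in MOZ KO replicates 1 to 3, against 41.8, 36.3, 35.8, 36.9 and 36.4 CPM in MOZ WT replicates 1 to 5. One heart of each group stands above the rest, MOZ KO replicate 3 and MOZ WT replicate 1. The log2 fold change was 0.07 ± 0.07 (SE), with an interval of 0.947-fold to 1.16-fold. It was 0.01 without MOZ KO replicate 3 and 0.11 without MOZ WT replicate 1, so its size rests on those hearts. MOZ KO replicate 3 is also the heart with the highest Afp and Alb, and their part in the Ing5 value was not tested. Meaf6 had 25.2, 23.0 and 23.9 CPM in MOZ KO replicates 1 to 3, against 24.4, 22.5, 23.6, 22.0 and 24.3 CPM in MOZ WT replicates 1 to 5. The highest heart was MOZ KO replicate 1 and the others overlapped, with a log2 fold change of 0.04 ± 0.08 (SE) and an interval of 0.922-fold to 1.15-fold.

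**Figure D4:**
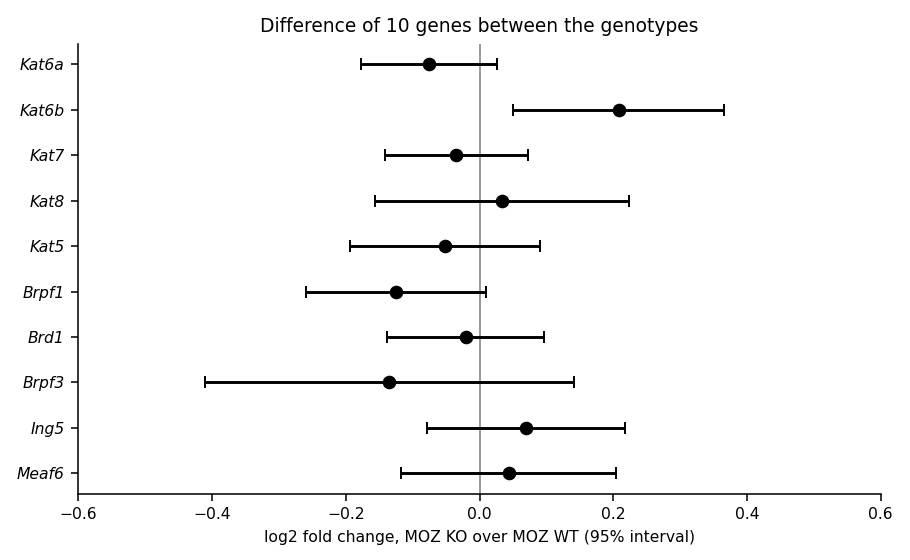
Log2 fold change of each gene, MOZ KO over MOZ WT (horizontal axis), with bars for the 95% interval of each gene alone. The bar of Kat6b is the only one that does not cross 0, and its adjusted p is 0.182; the bar of Brpf3 is the widest, from -0.41 to 0.14.

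Over the 10 genes, the upper ends of the intervals ran from 1.01-fold for Brpf1 to 1.29-fold for Kat6b, and the lower ends from 0.752-fold for Brpf3 to 1.04-fold for Kat6b. A p that misses the threshold does not show equal levels, and these intervals give the sizes of rise or fall that the 8 hearts leave possible for each gene taken alone.

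Partners of the MYST enzymes and other acetylation genes were read from the same fit, as 62 genes in 6 groups. None of the 62 passed in either direction in the edgeR quasi-likelihood test, in DESeq2 or in limma voom, and 7 had an unadjusted p under 0.05, where 14.2% of all genes tested did. Values of the genotypes did not overlap for 5 of the 62, beside 9.59% of all genes tested. The median log2 fold change over the 62 was 0.02, where that of all genes tested was 0.00.

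The JADE scaffolds, which pair with KAT7, and Ing4, the near relative of Ing5 that the title also names, formed the first group of 4. Ing4 stood at 28.1 ± 3.30 CPM per kilobase in MOZ KO hearts and 27.1 ± 1.31 in MOZ WT hearts, while Ing5 stood at 8.66 ± 0.568 in MOZ KO hearts and 8.25 ± 0.546 in MOZ WT hearts (SD, n = 3 and n = 5). Ing4 was thus above Ing5 in level per length in every heart, and its log2 fold change was 0.05 ± 0.07 (SE). The size of that gap rests on the table's lengths. Before the division the MOZ WT means were 43.85 CPM for Ing4 and 37.45 CPM for Ing5. In MOZ WT replicate 1 Ing5 was then the higher, at 41.8 CPM against 40.3 CPM, and Ing4 was the higher in the other hearts. Jade3, an X-linked scaffold gene and the gene of smallest p in this group, had 13.9, 16.0 and 16.6 CPM in MOZ KO replicates 1 to 3, against 19.3, 15.0, 16.0, 21.7 and 19.8 CPM in MOZ WT replicates 1 to 5 (adjusted p = 0.336, edgeR quasi-likelihood test). MOZ WT replicates 4 and 5, with Xist RNA, are again the highest hearts. Jade1, the JADE gene of the highest mean per length in each genotype, stood at 7.65 ± 0.199 CPM per kilobase in MOZ KO hearts and 7.82 ± 0.199 in MOZ WT hearts. Of Ing1, Ing2 and Ing3, other PHD finger subunits of chromatin complexes, Ing2 had the smallest p and a log2 fold change of -0.11 ± 0.10.

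In the 12 partners of KAT8 in the MSL and NSL complexes, log2 fold changes ran from -0.18 to 0.12. Mcrs1, an NSL subunit, had the smallest p there, with 40.2 ± 2.41 CPM in MOZ KO hearts and 44.8 ± 0.991 CPM in MOZ WT hearts (SD, n = 3 and n = 5; adjusted p = 0.225, edgeR quasi-likelihood test). In the 15 partners of KAT5 they ran from -0.15 to 0.14, and Trrap, the large scaffold that binds transcription factors, had 263 ± 13.6 CPM in MOZ KO hearts and 242 ± 19.4 CPM in MOZ WT hearts. In the 12 acetyltransferases of other families, 10 had a log2 fold change above 0, and the range was -0.06 to 0.17. Values above 0 were also found for 11 of the 15 partners of KAT5. They were found for 36 of all 62 genes in the 6 groups, and for 7535 of the 15086 genes tested. Ncoa1, a nuclear receptor coactivator with reported acetyltransferase activity, had 54.9 ± 2.49 CPM in MOZ KO hearts and 48.6 ± 1.39 CPM in MOZ WT hearts without overlap (log2 fold change 0.17 ± 0.06 SE; adjusted p = 0.129, edgeR quasi-likelihood test). Ep300 and Crebbp, the acetyltransferases of many enhancers, had log2 fold changes of 0.05 ± 0.06 and 0.07 ± 0.06. In the group of 16 deacetylase genes of the Hdac and Sirt families, log2 fold changes ran from -0.13 for Hdac1 to 0.25 for Hdac10. The smallest p there was that of the mitochondrial enzyme Sirt3 (log2 fold change 0.24 ± 0.09, adjusted p = 0.223, edgeR quasi-likelihood test).

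**Figure D5:**
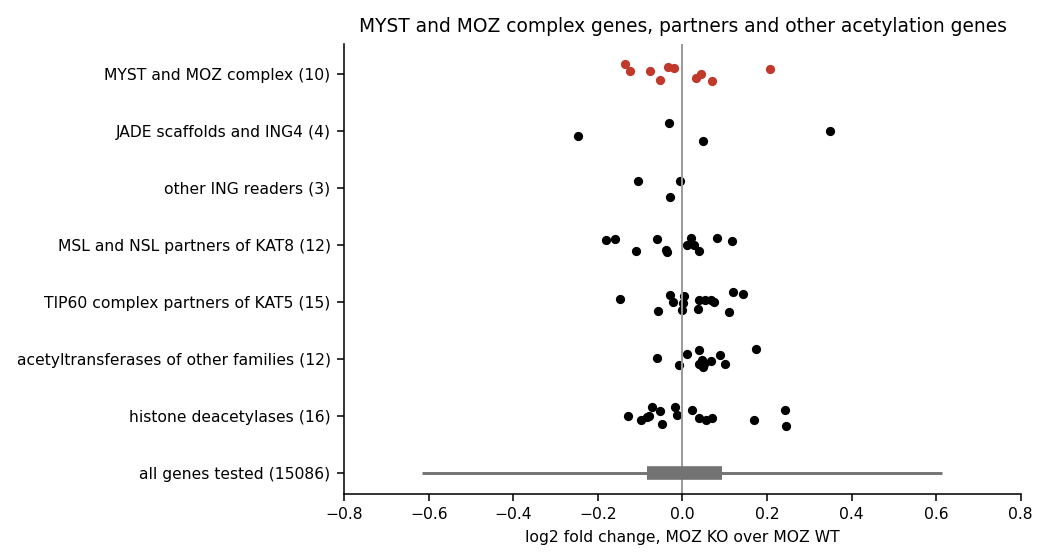
Log2 fold change, MOZ KO over MOZ WT (horizontal axis), of the 10 MYST and MOZ complex genes (red) and of 62 partner and other acetylation genes in 6 groups (black), with the number of genes in brackets. The grey line spans the middle 95% of all 15086 genes tested, from -0.62 to 0.61, and the thicker grey bar their quartile range, from -0.08 to 0.09; none of the points is past an adjusted p of 0.05.

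Around the Kat6a locus, 22 of 59 annotated genes within 1 Mb of its ends were tested. None passed in the edgeR quasi-likelihood test, where 2.67% of all genes tested did, nor in DESeq2 or limma voom. An unadjusted p under 0.05 was found for 3 of the 22, beside 14.2% of all genes tested. Their median log2 fold change was -0.02.

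The genes whose pattern over the 8 hearts was most like that of Kat6a were Neo1, Ripor1 and Arhgef2. Likeness was measured as the root mean square difference of log2 CPM, each gene centred on its own mean, and was 0.0206 for Neo1, 0.0225 for Ripor1 and 0.0251 for Arhgef2, where the median over all genes was 0.137. Like Kat6a, each was highest in MOZ WT replicate 5, where Neo1 had 233 CPM and between 195 and 214 CPM in the other 7 hearts. A small difference of this kind favours genes that vary little, and the points share their libraries.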

How the data were processed

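RNA was measured in 8 heart samples. Per the labels' protocols, total RNA was purified with an RNeasy Micro kit and sequenced from stranded TruSeq libraries. Per the submitters' processing notes, bcl2fastq, featureCounts and the mm10 build were used. No source used here gives the aligner, tool versions, annotation release or strand setting. Whole-number read counts for each Entrez gene, without normalization, were deposited by the authors, beside a gene length. The series table and the 8 single-heart files held identical counts. Symbols and positions came from the RefSeq table of GRCm38.p6 (25275 of 27179 IDs matched), sequences and exons from GENCODE M21 on GRCm38.

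Groups follow the titles. Genes were filtered with filterByExpr, scaled by TMM and tested with edgeR 4.0.16 (robust quasi-likelihood fit, no covariate, Benjamini-Hochberg over all genes, threshold 0.05) in R 4.3.3; standard errors were derived from the fold change and its F statistic, and intervals use the fit's degrees of freedom. Alternatives used DESeq2 1.42.0, limma 3.58.1, other scalings and filters, a replicate block and left-out hearts. The test was also run on simulated counts that gave all genes the same spread setting, unlike these hearts, and no result here rests on that run. Named genes were the 10 genes, the gene of smallest p in each group where none passed, and the 3 genes most like Kat6a; Ing4, Jade1, Ep300, Crebbp, Hdac1 and Hdac10 were added after their values were seen. The genes and lists were chosen with earlier results of these data known.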

Additional observations from a re-analysis of the deposited data

Results flagged for a closer look

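Over the 5 MOZ WT hearts, the highest or lowest heart was compared with its nearest neighbour for the CPM of the 10 genes and for the 5 enzyme shares. In 2 of these 15 sets 1 heart stood far from the others, where chance gives about 1 in 20. Kat7 had 97.3 CPM in MOZ WT replicate 5, and the gap to the next heart was 0.840 of the whole range; the other 4 hearts lay between 92.7 and 93.5 CPM. Ing5 had 41.8 CPM in MOZ WT replicate 1, with a gap of 0.806 of the range, and the other 4 hearts lay between 35.8 and 36.9 CPM.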

How the results depend on the processing

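No alternative called any of the 10 genes. Of 170 recomputed fold changes, 9 turned direction, all of them small: leaving out MOZ WT replicates 4 and 5 gave 0.036 for Brd1 and 0.022 for Brpf3 on the log2 scale, the replicate block over replicates 1 to 3 gave 0.036 for Brd1 and 0.023 for Brpf3, and leaving out single hearts gave -0.088 to 0.003 for Kat7, -0.034 to 0.105 for Kat8 and -0.056 to 0.009 for Brd1. The same omissions gave 0.01 to 0.11 for Ing5, 0.01 to 0.07 for Meaf6, -0.09 to -0.01 for Kat5 and -0.20 to -0.06 for Brpf3, without a change of direction. The count of all genes past the threshold was 403, and 194 to 496 with each heart left out in turn (194 without MOZ KO replicate 1 and 263 without MOZ KO replicate 3), 186 under the replicate block, which also has fewer hearts, and 580 with DESeq2; the cause was not tested. Same-numbered hearts did not deviate together (r = 0.0204, -0.100 and -0.0394 across genes). No MOZ KO heart correlated best with the MOZ WT heart of its own number, and of MOZ WT replicates 1 to 3 only replicate 1 did so. The block is therefore given only as an alternative. Without division by length, the MOZ WT means in CPM were 144.6 for Kat6a, 42.0 for Kat6b, 94.1 for Kat7, 20.3 for Kat8, 39.3 for Kat5, 48.6 for Brpf1, 96.5 for Brd1, 70.1 for Brpf3, 37.5 for Ing5 and 23.3 for Meaf6, and the shares of the enzymes were 42.5%, 12.3%, 27.7%, 5.96% and 11.6% for Kat6a, Kat6b, Kat7, Kat8 and Kat5. The order of levels therefore depends on the length, as the division itself makes it. The interval of each gene holds the differences that these hearts leave possible, and it is no limit of detection.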
